A study of Mus musculus with 12 samples.

Results

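The genes described here belong to 7 solute carrier families that move amino acids and related small molecules across membranes: SLC1, SLC3, SLC6, SLC7, SLC36, SLC38 and SLC43. They were chosen by symbol, with 1 symbol left out, and by their annotation as protein-coding, and 36 of the 15838 genes with a row in the deposited tables were members. The mouse annotation holds 60 protein-coding genes under the same rule. The other 24 had no row that met the rule and were not analysed here, so counts and shares of members cover only genes with a row. The RNAseq libraries came from corneal endothelial cells (CEC), the cell layer that lines the back of the cornea and was peeled off with Descemet membrane, of C57BL/6 mice at 10 weeks of age. The 12 libraries fall into 4 groups of 3 each: male KO (*Slc4a11*-/-), female KO (*Slc4a11*-/-), male WT (*Slc4a11*+/+) and female WT (*Slc4a11*+/+). KO and WT mice were littermates from heterozygous crosses, and the KO allele lacks several exons of *Slc4a11* in every cell of the animal. The study compared the genotypes, the sexes and their interaction.

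CEC pump fluid out of the cornea and burn glutamine as a fuel, so amino acid carriers sit close to their energy supply. Amino acid transport works in layers. Sodium-coupled carriers load the cell with glutamine, alanine or glutamate. Exchangers then trade the loaded amino acid for others, such as leucine. Some of the exchangers are heterodimers of a heavy chain from SLC3, which brings the pair to the cell surface, and a light chain from SLC7, which forms the transport path. Other members work in the lysosome, where they export amino acids or report them to the growth kinase mTORC1.

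What could be measured was the level of each gene. The deposited tables give 1 mean level for each gene over the libraries, as log2 CPM (read counts of a gene scaled to the size of its library), next to the authors' own comparisons, which were not used. No value per library or per group was used, so no difference between KO and WT or between male and female mice is reported. The means carry no error, depth per library is unknown here, and whether neighbours in the order of levels differ beyond the spread between libraries could not be tested. A CPM value below is 2 raised to the mean log2 CPM. Genes were compared with each other per kilobase, which is CPM divided by the union of annotated exons.

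The mean level of *Slc4a11*, the gene deleted in KO mice, was 1676 CPM over both genotypes, which cannot check the labels. The 14 listed marker symbols of corneal endothelium stand for 13 genes, since 1 is a second name. All 13 had a row, and 12 of them reached 100 CPM, with *Col8a2*, a Descemet membrane collagen, at 7100 CPM and *Car12* the exception at 3.15 CPM. All 6 stromal markers with a row also exceeded 100 CPM, among them *Col1a2* at 4296 CPM and the keratocyte proteoglycan *Kera* at 342 CPM. Epithelial markers ran from 3.74 to 34.8 CPM over 7 genes, pigment cell markers from 0.669 to 18.9 CPM over 6 genes, and leukocyte markers from 1.91 to 19.8 CPM over 5 genes. Of the muscle list 3 genes had a row, led by *Myh11* at 206 CPM. Nerve and glia markers lay between 0.701 and 54.9 CPM over 4 genes, lens markers between 0.830 and 6.18 CPM over 5 genes, and vessel markers between 0.182 and 82.1 CPM over 5 genes. How much of a member's level came from stromal or other cells was not tested.

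Amino acid transporter levels spanned 1317-fold, from 0.599 CPM for *Slc6a17* to 789 CPM for *Slc7a8*. The members were at least 1 CPM in 34 of 36 cases and at least 10 CPM in 22, while 8 reached 100 CPM. These 8 genes were *Slc7a8*, *Slc38a1*, *Slc3a2*, *Slc6a6*, *Slc7a5*, *Slc38a10*, *Slc38a2* and *Slc1a3*, and together they held 88.8% of the summed CPM of all members. Just inside 100 CPM lay *Slc1a3* at 141 CPM and just outside lay *Slc36a4* at 74.0 CPM. The corresponding neighbours of 10 CPM were *Slc7a7* at 10.54 CPM and *Slc38a6* at 9.07 CPM, and those of 1 CPM were *Slc3a1* at 1.64 CPM and *Slc6a15* at 0.987 CPM. The plot of levels by family shows that SLC1, SLC3, SLC6, SLC7 and SLC38 each had genes above and genes below the median of all rows, whereas both SLC36 genes lay above it and both SLC43 genes below it.

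**Figure D1:**
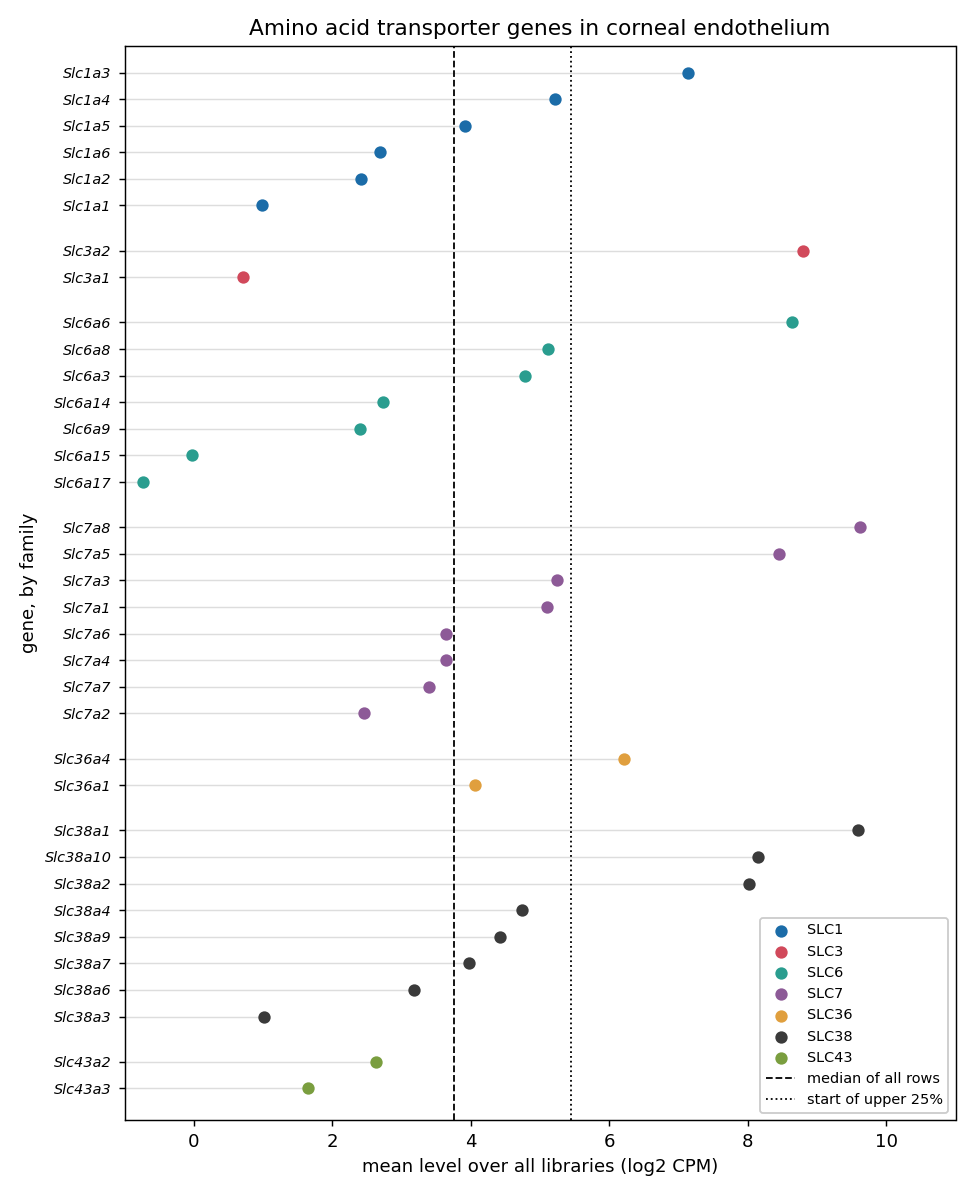
Mean level of 35 of the 36 genes over all libraries, in log2 CPM on the x axis, with 1 point per gene grouped and coloured by family. The dashed line marks the median of all 15838 rows (3.76 log2 CPM) and the dotted line the start of their upper 25% (5.45 log2 CPM), and 9 genes lie to the right of the dotted line.

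The members' median lay close to that of all rows, and the highest members stood out from it. The median was 3.94 log2 CPM, against 3.76 log2 CPM over all rows, 4.37 log2 CPM over the 12994 protein-coding rows and 3.91 log2 CPM over 209 protein-coding rows of other SLC families. Per kilobase of the exon union the members' median was the lowest of these, at 3.00 CPM per kilobase. All rows had 3.45, the protein-coding rows 4.55 and the other SLC families 3.08 CPM per kilobase. Whether this order holds with another gene length was not tested. The upper 25% of all rows, which begins at 43.8 CPM, held 9 of the 36 members, the same share. Of the protein-coding rows 30.3% lay there. At least 100 CPM was reached by 22.2% of the members, 10.8% of all rows, 13.1% of the protein-coding rows and 7.18% of the genes of other SLC families. At the lower end, 1 CPM was reached by 94.4% of the members, 91.0% of all rows, 95.3% of the protein-coding rows and 94.7% of the genes of other SLC families. These shares are descriptions without a test.

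**Figure D2:**
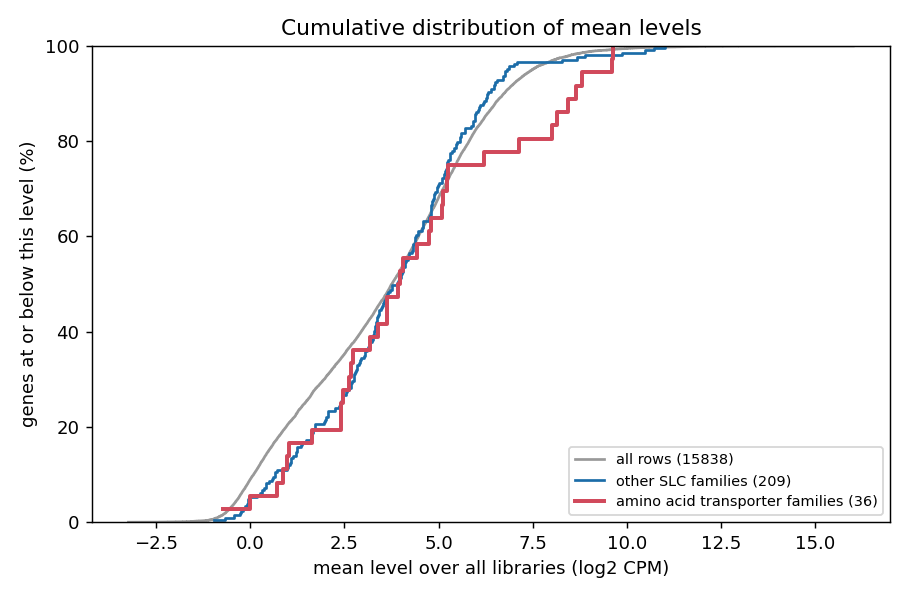
Cumulative share of genes, in percent on the y axis, at or below each mean level, in log2 CPM on the x axis, for the 36 amino acid transporter genes (red), 209 genes of other SLC families (blue) and all 15838 rows (grey). The red line runs close to the blue one up to about the start of the upper 25% and then moves to the right, where the 8 genes above 100 CPM lie.

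The heterodimeric exchangers held 3 of the 5 highest members. *Slc3a2* encodes the heavy chain CD98hc (4F2hc) and lies on chromosome 19, minus strand, from 8706882 to 8723369 (GRCm38). Its mean level was 8.80 log2 CPM, or 446 CPM, and 126 CPM per kilobase. *Slc7a8*, on chromosome 14, minus strand, from 54722209 to 54781946, encodes the light chain LAT2, an exchanger of neutral amino acids. It had the highest mean level of the members, 9.62 log2 CPM, and also the highest level per kilobase, 158 CPM per kilobase. *Slc7a5*, on chromosome 8, minus strand, from 121881150 to 121907694, encodes LAT1, the light chain that exchanges glutamine for leucine and other large neutral amino acids. Its level was 8.45 log2 CPM, or 94.3 CPM per kilobase. The level of *Slc7a8* per kilobase was 1.67 times that of *Slc7a5*. The remaining light chains with a row carry cationic amino acids outward in exchange for neutral ones. *Slc7a7*, which encodes y+LAT1, had 10.54 CPM, and *Slc7a6*, which encodes y+LAT2, had 12.5 CPM, or 3.18 and 2.73 CPM per kilobase.

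Summed per kilobase, these 4 light chains, which are not all that pair with it, had 2.04 times the level of *Slc3a2*, and *Slc7a8* and *Slc7a5* made up 97.7% of that sum. The other heavy chain, *Slc3a1*, encodes rBAT, which serves cystine uptake in the kidney. It was at 1.64 CPM, and *Slc3a2* had 175 times its level per kilobase, or 273 times without a length correction. Of the annotated exon bases of *Slc3a1*, 26.5% overlap exons of *Prepl* on the opposite strand, and *Prepl* itself was at 34.7 CPM. Whether reads were counted by strand is not given in the sources used here, so reads of both genes in that stretch cannot be told apart.

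**Figure D3:**
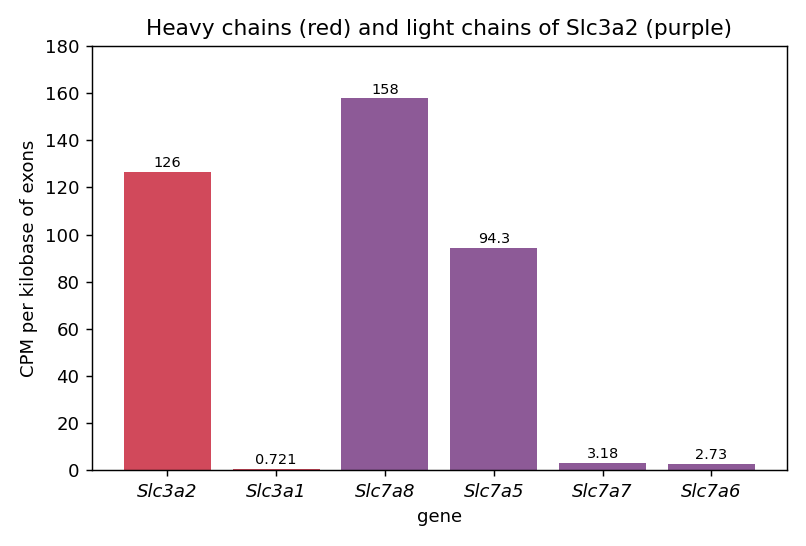
Mean level in CPM per kilobase of annotated exons, on a y axis that starts at 0, for both heavy chain genes (red) and 4 light chain genes that pair with the *Slc3a2* product (purple), with no error because the tables give 1 mean per gene. *Slc3a2* (126), *Slc7a8* (158) and *Slc7a5* (94.3) stand far above the other bars, none of which passes 3.18.

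The sodium-coupled neutral transporters of SLC38 take up glutamine, alanine and other small neutral amino acids. *Slc38a1*, which encodes SNAT1 and lies on chromosome 15, minus strand, from 96571418 to 96642913, was the second highest member at 9.59 log2 CPM, or 773 CPM. Its neighbour *Slc38a2* encodes SNAT2, the carrier that cells raise when amino acids are scarce. It lies on the same chromosome and strand from 96687392 to 96699730, and was at 8.02 log2 CPM, or 260 CPM. *Slc38a4*, which encodes SNAT4, is the next gene of the row, from 96994820 to 97055956, at 4.74 log2 CPM, or 26.7 CPM. The gaps between these genes are 44.5 and 295 kb, so all 3 lie in a single stretch of chromosome 15. Per kilobase *Slc38a1* was 1.52 times *Slc38a2*, and *Slc38a2* was 4.71 times *Slc38a4*. With the longest transcript the ratios were 2.50 and 6.28, and with the coding length 3.09 and 10.6. *Slc38a3*, which encodes SNAT3, a glutamine carrier of liver and astrocytes, was at 2.02 CPM.

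The comparison of *Slc38a1* with other genes depends on its length. Its annotated exons join to 17236 bases, the longest union of the members, of which 1455 bases are coding. It ranked 5 per kilobase of exons, 3 per kilobase of its longest transcript and 1 per kilobase of coding sequence.

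The other SLC38 members are found mostly on internal membranes. *Slc38a10*, whose product has been little studied, lies on chromosome 11, minus strand, from 120103960 to 120151346 and was at 8.14 log2 CPM, or 282 CPM. *Slc38a9*, the arginine sensor of the lysosome that signals to mTORC1, was at 21.5 CPM. *Slc38a7*, which encodes the lysosomal exporter of glutamine SNAT7, was at 15.6 CPM, and *Slc38a6* was at 9.07 CPM. The order of *Slc38a9* and *Slc38a7* was the reverse per kilobase, at 1.28 and 3.78 CPM. For *Slc38a6*, 35.5% of its distinct sequences of 50 bases, the length of a read, also occur in transcripts of other genes, so its level is uncertain.

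**Figure D4:**
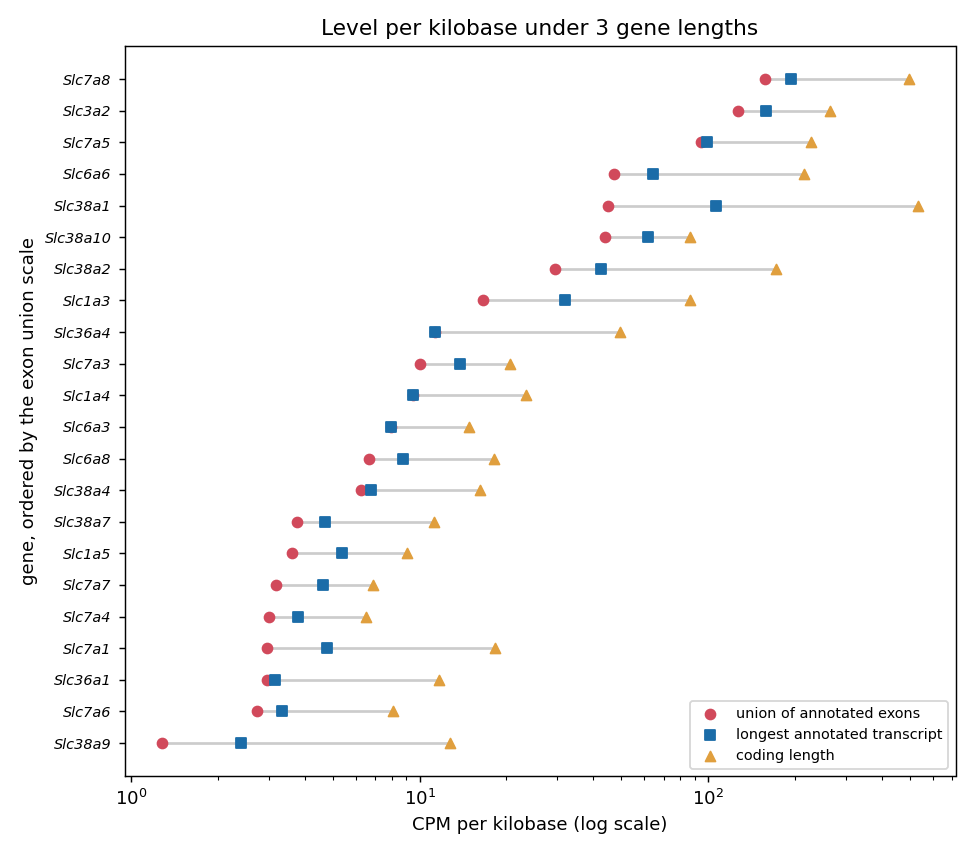
Mean level in CPM per kilobase, on a log x axis, of the 22 genes with at least 10 CPM, with the union of annotated exons (circles), the longest annotated transcript (squares) and the coding length (triangles) as the gene's length. *Slc7a8*, *Slc3a2* and *Slc7a5* lead on the exon union, and *Slc38a1* moves from the fifth place to the first when the coding length is used.

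Glutamate transporters of SLC1 clear glutamate from outside the cell. *Slc1a3*, which encodes GLAST and lies on chromosome 15, minus strand, from 8634124 to 8710764, was at 7.14 log2 CPM, or 141 CPM. The other genes of this kind were far lower, with *Slc1a6* (EAAT4) at 6.43 CPM, *Slc1a2* (GLT-1) at 5.32 CPM and *Slc1a1* (EAAC1) at 1.97 CPM. Per kilobase, *Slc1a3* was 5.53 times *Slc1a6*, 40.8 times *Slc1a2* and 69.3 times *Slc1a1*. With the longest transcript these ratios were 10.0, 69.4 and 61.4, and with the coding length 22.7, 28.0 and 69.0, so *Slc1a3* was highest on each scale while the sizes moved. Exons of a gene on the opposite strand overlap 31.9% of the exon bases of *Slc1a1*. SLC1 also holds exchangers of small neutral amino acids. *Slc1a4*, which encodes ASCT1, a carrier of serine and alanine, was at 37.2 CPM. *Slc1a5*, which encodes ASCT2, a glutamine exchanger that is prominent in proliferating cells, was at 15.1 CPM. *Slc1a4* was 2.62 times *Slc1a5* per kilobase.

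The SLC7 genes grouped as cationic amino acid transporters work without a heavy chain, and most of them carry arginine and lysine. *Slc7a3*, which encodes CAT-3, was at 38.03 CPM and *Slc7a1*, the widely expressed CAT-1, at 34.2 CPM. Per kilobase of exons *Slc7a3* was 3.39 times *Slc7a1*, but per kilobase of coding sequence 1.12 times. *Slc7a4* was at 12.5 CPM and *Slc7a2*, which encodes CAT-2, at 5.48 CPM.

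Among the SLC6 members, most of which couple uptake to sodium and chloride, *Slc6a6* stood alone. It encodes the transporter of taurine, an amino acid that cells use to balance osmotic stress. It lies on chromosome 6, plus strand, from 91684053 to 91759066 and was at 8.64 log2 CPM, or 398 CPM. *Slc6a8*, the creatine transporter, was at 34.7 CPM, and *Slc6a6* had 7.07 times its level per kilobase of exons and 11.8 times its level per kilobase of coding sequence. *Slc6a3*, which encodes the dopamine transporter of midbrain neurons, was at 27.6 CPM, or 7.98 CPM per kilobase, against 6.66 CPM per kilobase for *Slc6a8*. That order held only with the exon union. The ratio of *Slc6a3* to *Slc6a8* was 0.913 with the longest transcript, 0.823 with the coding length and 0.796 without a length correction. The broad carrier *Slc6a14* was at 6.63 CPM and the glycine transporter *Slc6a9* at 5.30 CPM, with 30.2% of its exon bases under exons of genes on the opposite strand. The neuronal neutral amino acid carriers *Slc6a15* and *Slc6a17* were the only members under 1 CPM, at 0.987 and 0.599 CPM.

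Some SLC36 transporters, though not all, move small amino acids with protons. *Slc36a4*, which encodes PAT4, lies on chromosome 9, plus strand, from 15709738 to 15743361 and was at 6.21 log2 CPM, or 74.0 CPM. *Slc36a1*, which encodes the lysosomal exporter PAT1, was at 16.7 CPM, and *Slc36a4* had 3.82 times its level per kilobase. Both SLC43 members were low. *Slc43a2*, which encodes LAT4, a facilitated carrier of large neutral amino acids, was at 6.18 CPM. *Slc43a3*, whose product carries purine nucleobases rather than amino acids, was at 3.13 CPM. The ratio of *Slc43a2* to *Slc43a3* was 0.877 per kilobase of exons and 1.74 per kilobase of coding sequence.

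By family, SLC38 held 35.9% of the summed CPM of the members and SLC7 held 32.3%. SLC6 followed with 12.3%, SLC3 with 11.6%, SLC1 with 5.35%, SLC36 with 2.34% and SLC43 with 0.240%. Per kilobase the first places changed, with 42.4% for SLC7, 20.3% for SLC38 and 19.7% for SLC3.

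Promoter sequences were at hand for 24 of the 36 members, with 36 start sites between them (RefSeq, GRCm38.p6, from 250 bases before to 50 bases after each start). The remaining members were not searched, so a member not named below need not lack the letters. Both strands were searched for the letters CACGTG, which read the same on both strands and are the core that transcription factors of the TFEB group bind at lysosomal genes, and TGATGNAA, the core of the element that ATF4 binds in amino acid starvation. The letters CACGTG were in 4 of the 36 member promoters, or 11.1%, and in 7.15% of all 32851 promoters. They occurred in *Slc36a1*, *Slc38a7*, *Slc1a6* and *Slc6a3*. The windows of both lysosomal genes are shown, 5′ to 3′ on the gene's strand, with the matched letters in capitals. The *Slc36a1* windows are chr11:55204297-55204326 and chr11:55204325-55204354, both on the plus strand, and the *Slc38a7* window is chr8:95853508-95853537 on the minus strand. Counted from the RefSeq start of the gene, the matched letters begin at -31 and -3 in *Slc36a1* and at -34 in *Slc38a7*.
Slc36a1 upstream match: ggaatggagcggCACGTGacctgggctagg
Slc36a1 match at the start: gggagccagcatCACGTGacagggcccgga
Slc38a7: gtgattcaggctCACGTGttacttgagtcg

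The letters TGATGNAA, or their complement on the other strand, were in 3 of the 36 member promoters (8.33%) and in 3.97% of all promoters. They belonged to *Slc1a4* and to *Slc7a7*, where overlapping promoters of neighbouring starts share a further site that is not shown. A window of each gene is given for comparison with the element named above. The *Slc1a4* window is chr11:20332699-20332728, and the *Slc7a7* window chr14:54418067-54418096, both on the minus strand, and the letters begin at -4 in *Slc1a4* and at -141 in *Slc7a7*.
Slc1a4: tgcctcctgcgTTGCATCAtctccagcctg
Slc7a7: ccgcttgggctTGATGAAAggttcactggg

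A match of letters does not show that a factor was bound. *Tfeb* was at 16.7 CPM and *Atf4* at 95.9 CPM in the same libraries.

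Other genes of amino acid transport were followed from fixed lists. Of 20 transporters outside the 7 families, 14 had a row, all 14 reached 1 CPM and 10 reached 10 CPM, with a median of 15.0 CPM against 13.5 CPM over all rows and 20.6 CPM over protein-coding rows. Of all rows 91.0% reached 1 CPM and 55.6% reached 10 CPM, and of protein-coding rows 95.3% and 66.7%. The highest was *Slc25a12*, a mitochondrial carrier that exchanges aspartate for glutamate, at 77.5 CPM. *Ctns*, which exports cystine from the lysosome, was at 19.9 CPM. Of 10 symbols listed for partners and regulators, 1 of them a second name, 8 had a row, led by *Bsg*, the ancillary protein basigin, at 8005 CPM. *Arl6ip5*, which restrains the glutamate transporter EAAC1, was at 87.4 CPM, and *Cltrn*, a partner of SLC6 carriers in the kidney, at 1.13 CPM.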

How the data were processed

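Libraries were made by the authors from stranded total RNA of low input and read as paired-end reads of 50 bp. Reads were aligned by the authors to GRCm38 with HISAT2, and counts were converted to CPM with TMM normalization and fitted with limma and voom. Versions, the counter, strand setting and annotation release are not given in the sources used here. The membranes are described as pairs per mouse in the paper and as pooled in the sample records. The authors deposited 3 tables, for genotype, sex and the interaction, each with the mean expression on the log2 CPM scale and 5 columns of their own comparison (log2 fold change, moderated t, p, adjusted p and log odds). The comparison columns were not used. The deposited log2 means were equal in the 3 tables. With no counts or values per library, no interval, SD or test could be given.

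CPM was computed as 2 raised to the mean. Gene positions and lengths came from GENCODE M21, which held 15824 of the 15838 genes. Lengths were the union of annotated exons. For each member, distinct sequences of 50 bases from its transcripts were looked up on both strands in all other transcripts, and exon overlaps were summed. Helpers were tested on simulated sequences. Python 3.11.15, pandas 2.3.3 and numpy 2.4.6 were used. The members and lists were chosen with earlier results of these data known. All members could be named, and those of at least 10 CPM, both heavy chains, the family extremes and the genes beside a limit were to be given with values. A few genes are not reported by name here. Protein identity was not analysed here.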

Additional observations from a re-analysis of the deposited data

How the results depend on the processing

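The count of members was 36 at a minimum of 0.5 CPM and 31 at 2 CPM, against 34 at 1 CPM, and 23 at 8 CPM and 21 at 12 CPM, against 22 at 10 CPM. All 3 tables carry the same mean for each gene, so taking it from another of them could not move a level or count and tests nothing. Of the 10 highest members per kilobase, all 10 were among the 10 highest without a length correction and with the longest transcript, and 9 with the coding length, which was added after the data were seen. The upper 25% held 9 members against protein-coding rows and 11 per kilobase. Per kilobase, the share of the summed level moved by over 1.5 times for SLC3, from 11.6% to 19.7%, and for SLC38, from 35.9% to 20.3%. The ratio of the light chains to *Slc3a2* was 1.89 with the longest transcript and 2.60 without a length correction, both also added later, and the median level per kilobase of the members was 4.21 CPM with the longest transcript against 3.00 CPM. Identity of proteins was planned and not run, as no protein table was at hand. Ratios of single members on other lengths were also added after the data were seen. No paired analysis was possible because the tables give no values per library and the labels number no replicates within the groups. Leaving out a replicate was likewise not run. Unknown depth and the missing spread between libraries limit every value.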

Other observations

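Genes listed for amino acid sensing by mTORC1, which include parts of mTORC1 itself, were measured throughout. The 32 listed symbols stand for 31 genes, since 1 is a second name. All 31 had a row, all 31 reached 1 CPM and 27 reached 10 CPM, with a median of 33.3 CPM against 13.5 CPM over all rows and 20.6 CPM over protein-coding rows. Of all rows 91.0% reached 1 CPM and 55.6% reached 10 CPM, and of protein-coding rows 95.3% and 66.7%. The kinase *Mtor* was highest at 170 CPM. The sestrins, a family that includes leucine sensors, ran from *Sesn3* at 157 CPM over *Sesn1* at 41.9 CPM to *Sesn2* at 10.4 CPM. The arginine sensor *Castor1* was at 5.74 CPM and the related gene *Castor2* at 40.9 CPM, or 3.65 and 5.42 CPM per kilobase. All 13 genes of the amino acid starvation response had a row, all 13 reached 1 CPM and 10 reached 10 CPM, with a median of 26.4 CPM. *Nupr1*, a stress-induced chromatin protein, led at 278 CPM. Only *Asns*, *Cebpb* and *Chac1* lay below 10 CPM. *Asns*, which makes asparagine and is a classical target of ATF4, was at 6.79 CPM. *Cebpb* was at 3.06 CPM and *Chac1*, which breaks down glutathione, at 2.56 CPM. The rest of the list ran from *Ddit3* at 11.8 CPM to *Atf4* at 95.9 CPM.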
